A study of Sus scrofa with 20 samples.

Results

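Transcripts of myelin and mature oligodendrocyte genes were measured in the amygdala, which processes fear in the forebrain. The tissue came from 20 German Landrace pigs of adult stage, 10 labelled high-reactive (HR) and 10 low-reactive (LR) by coping pattern, with 1 array per animal. Per the study, the groups combined extreme early-life backtest behavior, in which a piglet is held on its back and its struggling is scored, with the haplotype at a coping-associated region of chromosome 12 (SSC12). Behavior and haplotype therefore cannot be told apart, and no treatment is described. The genes were chosen by name as MBP, MOG, MAG, MOBP, CNP, UGT8, ASPA, MAL and ERMN. The platform annotation, whose symbols can be old, names 13755 genes, and gave these 9 of them 19 of the 47845 probe sets on the array. Probe sets were tested where their mean log2 value reached 5.18, the middle value over the whole table, which 17 of the 19 did, among 23860 in all.

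Oligodendrocytes wrap axons of the central nervous system in myelin, a stack of compacted membrane that is rich in galactolipids and speeds conduction. MBP zippers the inner faces of the membrane together, while MOG and MAG sit on the outermost and innermost layers. UGT8 and ASPA serve lipid synthesis, and MAL, CNP and ERMN belong to membrane sorting and the cytoskeleton. In the amygdala, oligodendrocytes stand among neurons and along fiber tracts. In bulk tissue fewer oligodendrocytes and less RNA per cell cannot be told apart.

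Array medians lay between 5.14 and 5.22. One array stood apart, as LR replicate 3 correlated with the other 19 arrays at a median of 0.876 and had a mean of 3.71 over the 69 antigenomic background probe sets. These are array controls without a pig target, measured here after the authors' normalization. The background mean ranged from 3.98 to 4.37 in HR and from 3.71 to 4.22 in LR. The animal numbers in the titles also differed, since 9 of the 10 HR animals were numbered above every LR animal. Differences were therefore also fitted with the background mean as a covariate and without LR replicate 3.

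None of the 9 genes passed the test between HR and LR. Limma adjusted p-values over all tested probe sets ran from 0.157 to 0.915 for the 17 probe sets, and 0 of 17 lay under 0.05 against 0.00838% of all probe sets tested. At an unadjusted p under 0.05, 6 of 17 probe sets were lower and 0 higher in HR, against 14.0% lower and 12.3% higher among all tested. These 6 were both probe sets of UGT8, those of ASPA and ERMN, and the dimmer pair among the 4 tested sets of MBP. The median difference, HR minus LR, was -0.17 over the 17 probe sets and 0.05 over all tested. Counted as 1 probe set per gene, the one with the highest mean, 3 of 9 genes were lower at an unadjusted p under 0.05.

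With the background mean as a covariate, the limma adjusted p was 0.9997 for each of the 17. Then 2 probe sets, 1 of MOG and that of MAG, were lower in HR at an unadjusted p under 0.05, against 2.28% of all tested, and neither was among the 6 above. The fitted difference was below 0 for 16 of 17 probe sets and for 9 of 9 genes, against 11864 of all 23860 tested. The median was -0.18 over the 17 and 0.00075 over all tested. Several of the 17 read the same gene on the same arrays, and the genes correlated with each other, so these signs are not independent. Without LR replicate 3, 5 of 17 were lower, against 10.6% of all tested.

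**Figure D1:**
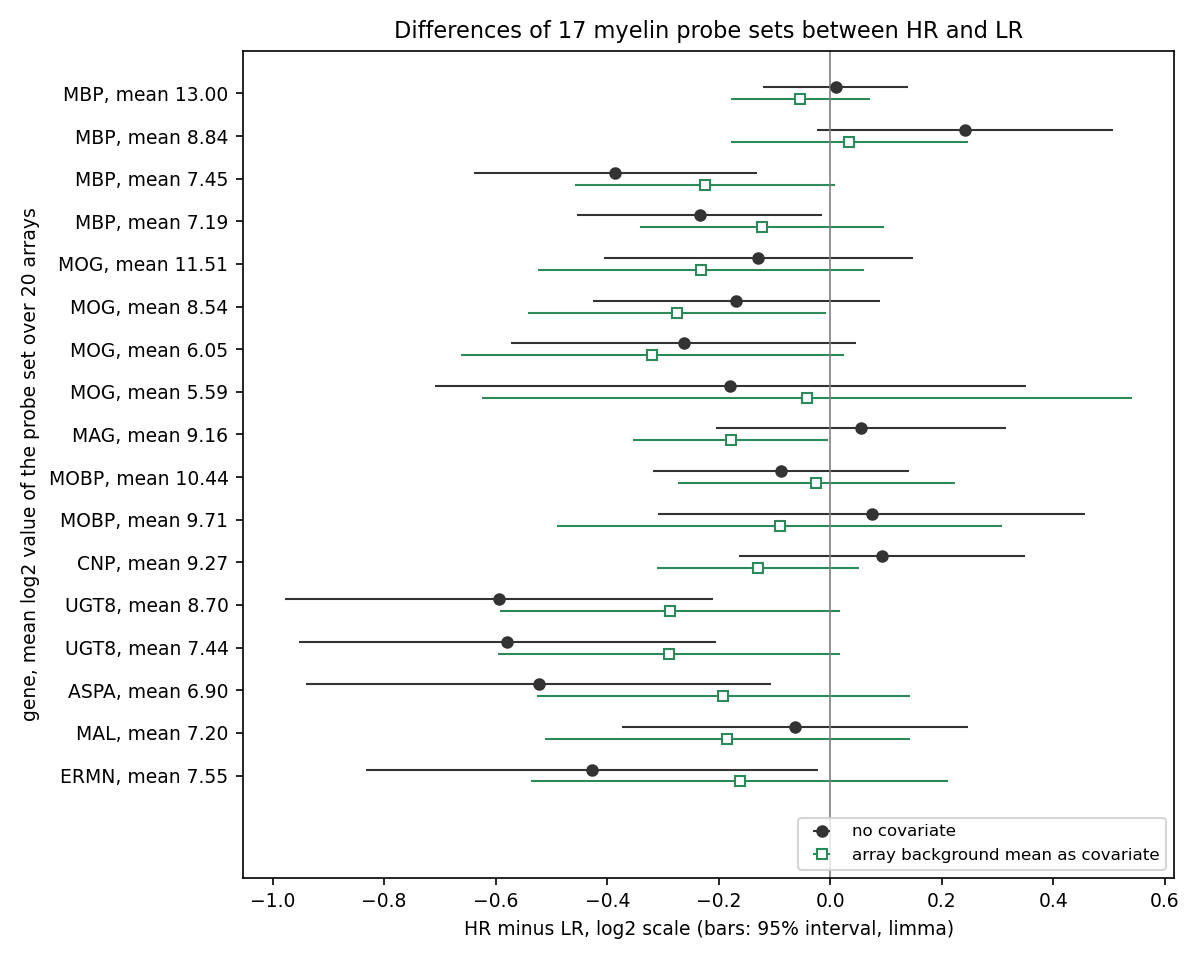
HR minus LR differences on the log2 scale (x axis) for the 17 tested probe sets (y axis, named by gene and mean log2 value), without a covariate (filled circles) and with the array background mean as covariate (open squares). Bars are 95% intervals from limma with 10 arrays per group; UGT8, ASPA and ERMN lie between -0.59 and -0.43 without the covariate and between -0.29 and -0.16 with it.

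UGT8, ASPA and ERMN had the lowest values in HR relative to LR. UGT8 is the enzyme that adds galactose to ceramide and so makes galactosylceramide, the main galactolipid of myelin. Its probe set SNOWBALL_011792_st ran from 7.87 over a median of 8.50 to 8.82 in HR and from 8.47 over 8.96 to 10.1 in LR. Each of the 10 HR animals was below the LR median, but the groups overlapped, and LR replicates 3 and 2 were the highest. Means were 8.40 ± 0.37 (SD, n = 10) in HR against 8.99 ± 0.52 (SD, n = 10) in LR. The difference of -0.59 ± 0.19 (SE), with LR 1.51-fold above HR, had a limma p of 0.00394 and an adjusted p of 0.157. The other probe set of UGT8, SNOWBALL_047799_st, gave -0.58 ± 0.18 (SE), and the sets followed each other over the 20 arrays at r = 0.956. Without LR replicate 3 the first set gave -0.47, and with the background covariate -0.29, with p = 0.064 before adjustment.

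ASPA cleaves N-acetylaspartate, a neuronal metabolite whose acetate feeds myelin lipid synthesis, and its loss causes Canavan disease in humans. Values ran from 6.03 over a median of 6.67 to 7.15 in HR and from 6.30 over 7.10 to 8.47 in LR. In HR, 9 of 10 animals had less than the LR median, although LR replicate 5 was lower than all but 2 HR animals. The difference was -0.52 ± 0.20 (SE), with a limma adjusted p of 0.159, and was -0.38 without LR replicate 3 and -0.19 with the covariate. ASPA lies on SSC12, between SPATA22 and TRPV3 in the RefSeq gene order, and so shares its chromosome with the haplotype by which the animals were selected. In that order ASPA also falls between METTL16 and ATP1B2, which the study places in the coping-associated region. Whether this position bears on the difference of ASPA was not tested. CNP is on SSC12 too, but outside the stretch between METTL16 and ATP1B2, and the other 7 genes are on other chromosomes.

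ERMN encodes ermin, an actin-binding protein of mature oligodendrocytes. It ranged from 6.73 over a median of 7.32 to 7.76 in HR and from 7.13 over 7.61 to 9.40 in LR, where LR replicate 3 alone lay above 7.84. In HR, 8 of 10 animals had less than the LR median, and the ranges overlapped widely. The difference of -0.43 ± 0.20 (SE, limma adjusted p = 0.179) became -0.25 without LR replicate 3, with an unadjusted p of 0.0429, and -0.16 with the covariate. Leaving out that array also took the SD within groups from 0.48 to 0.27.

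**Figure D2:**
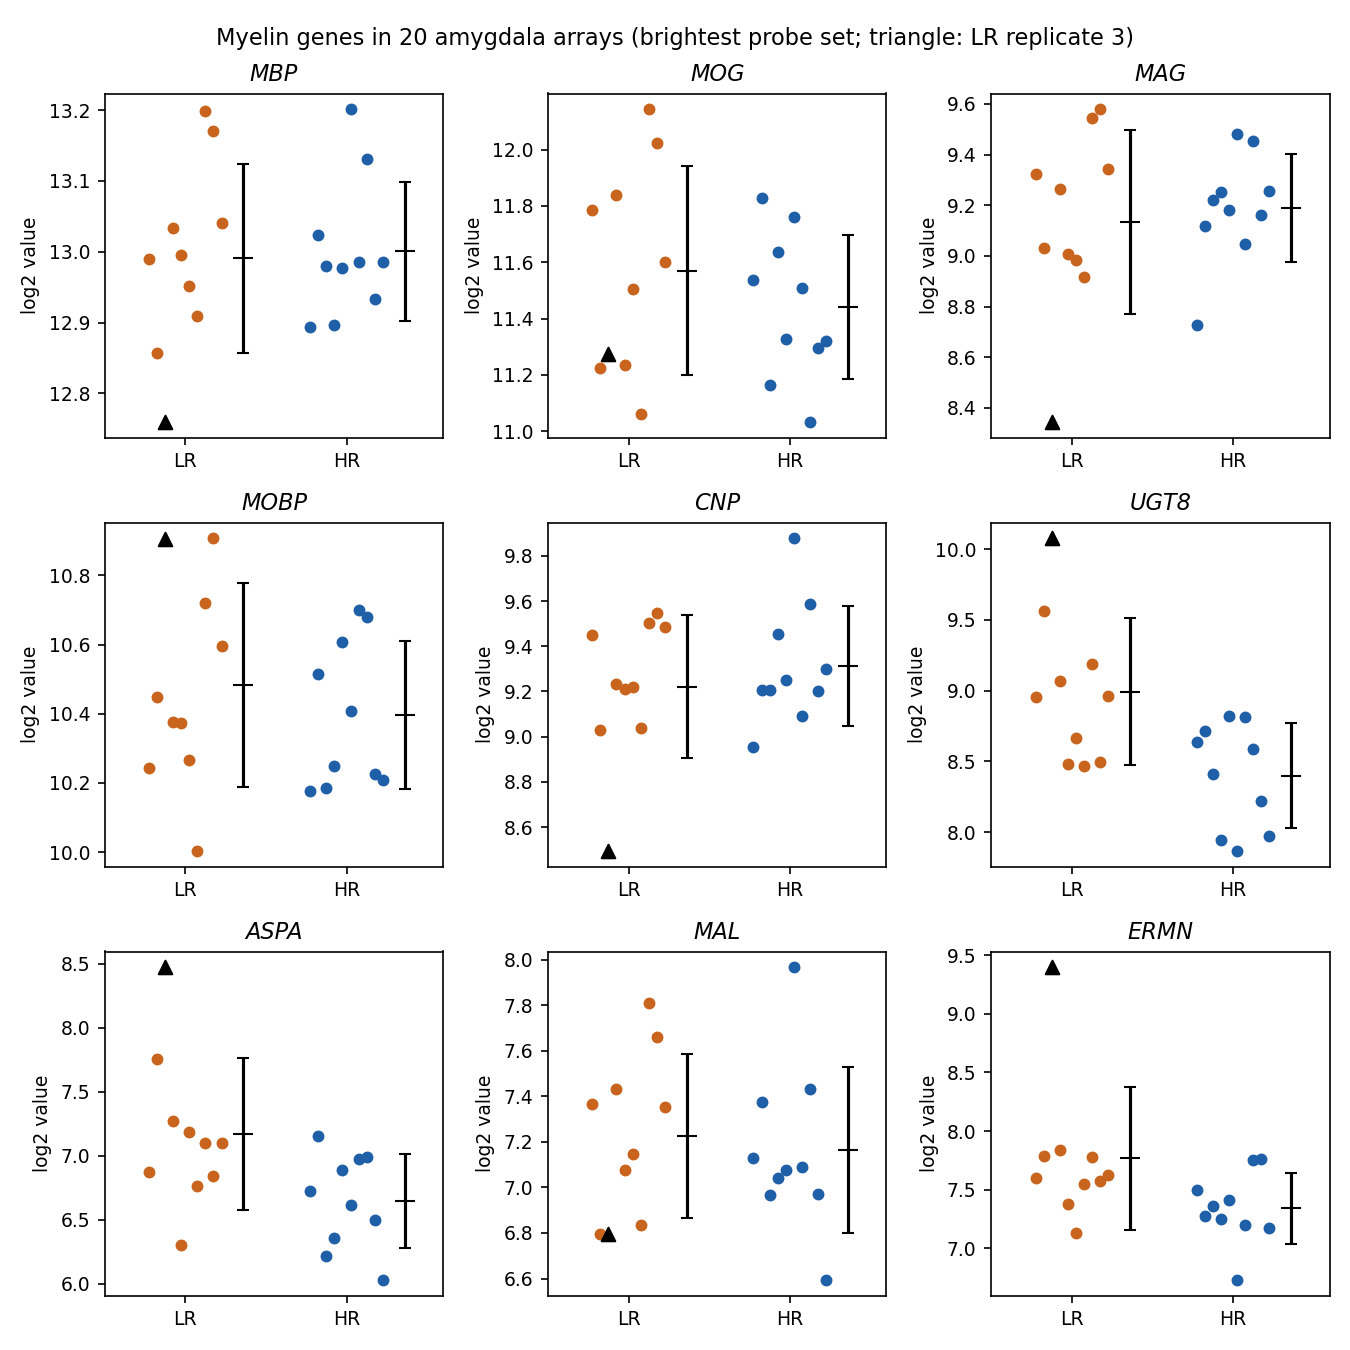
Log2 values (y axis, a scale of its own in each panel) of the 9 genes in the 10 LR and 10 HR arrays, 1 point per animal, from the probe set with the highest mean. Horizontal marks with bars are the group mean and SD, and the triangle is LR replicate 3, which is included in them; for UGT8 each of the 10 HR points is below the LR median of 8.96.

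The main probe sets of compact myelin proteins had differences nearer to 0. For MBP the set with the highest mean, SNOWBALL_021273_s_st, ran from 12.9 over a median of 13.0 to 13.2 in HR and from 12.8 over 13.0 to 13.2 in LR. The ranges nearly coincided, and the difference was 0.01 with a 95% interval from -0.12 to 0.14. Its SD within groups of 0.12 stood at the 2.94th percentile of all tested probe sets, against the 94.1st for UGT8, the 95.9th for ERMN and the 96.6th for ASPA. The other tested sets of MBP had SDs from 0.25 to 0.30, at the 64.9th to the 77.8th percentile. The level of the main set was at the 99.9th percentile, and whether its spread was compressed there was not tested.

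The probe sets of MBP did not move together. SNOWBALL_020904_st was at 8.96 ± 0.24 (SD, n = 10) in HR against 8.71 ± 0.35 (SD, n = 10) in LR, a difference of 0.24 with a limma adjusted p of 0.216 that the background covariate took to 0.03. SNOWBALL_028905_st ran the other way, from 6.59 over a median of 7.42 to 7.61 in HR and from 7.35 over 7.71 to 7.88 in LR, and 10 of 10 HR animals had less than the LR median. That difference was -0.39 ± 0.12 (SE), with p = 0.00452 and a limma adjusted p of 0.157, and was -0.22 with the covariate. SNOWBALL_026357_st gave -0.23 ± 0.11 (SE, limma adjusted p = 0.177), and -0.12 with the covariate. The last 2 sets followed each other at r = 0.856 over the 20 arrays, but followed SNOWBALL_020904_st at -0.37 and -0.24 and the main set at 0.06 and 0.01. Which transcripts of MBP each set reads is not given in the sources used here. A further 2 sets, SNOWBALL_027269_st and SNOWBALL_029083_st, had means of 5.06 and 5.01 and were not tested.

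MOBP, an abundant basic protein of compact myelin, averaged 10.4 ± 0.21 (SD, n = 10) in HR on its main probe set and 10.5 ± 0.30 (SD, n = 10) in LR. Its sets gave -0.09 and 0.07, and the 95% intervals reached from -0.32 to 0.14 and from -0.31 to 0.46. On the main set LR ran from 10.003 in replicate 7 to 10.9 in replicate 9, past both ends of the HR range from 10.2 to 10.7. MAL, a proteolipid that sorts membrane to myelin, ran from 6.59 to 7.97 in HR and from 6.79 to 7.81 in LR, with a difference of -0.06 and an interval from -0.37 to 0.25. HR replicate 6 was the highest and HR replicate 10 the lowest of all animals for MAL.

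MOG, a surface glycoprotein of the outermost layer, was below 0 in each of its 4 probe sets, with differences of -0.13, -0.17, -0.26 and -0.18. Its main set ran from 11.03 over a median of 11.4 to 11.8 in HR and from 11.1 over 11.6 to 12.1 in LR. The groups overlapped over most of their range, LR replicates 8 and 9 were the highest, and the 4 limma adjusted p-values ran from 0.239 to 0.618. With the background covariate the differences were -0.23, -0.27, -0.32 and -0.04, and SNOWBALL_001057_s_st had an unadjusted p of 0.0444. The sets shared their animal-to-animal pattern, at r between 0.616 and 0.896. The dimmest, SNOWBALL_001055_st, had an SD of 0.82 in HR, and 1 array, HR replicate 10 at 4.29, lay 0.05 below its own background mean.

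MAG is the adhesion molecule next to the axon, and CNP the enzyme of the cytoplasmic channels of myelin. MAG ran from 8.73 over a median of 9.20 to 9.48 in HR and from 8.34 over 9.15 to 9.58 in LR. CNP ran from 8.95 over 9.23 to 9.88 in HR and from 8.49 over 9.23 to 9.55 in LR. LR replicate 3 was the lowest array for both, and HR replicate 1 lay below all other LR arrays. For CNP, HR replicates 6 and 8 lay above every LR array. Between these the groups overlapped. Differences were 0.06 for MAG, with a 95% interval from -0.20 to 0.31, and 0.09 for CNP, from -0.16 to 0.35. With the background covariate the differences turned to -0.18 for MAG, at an unadjusted p of 0.0452, and to -0.13 for CNP.

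Array background moved with these values. Over 20 arrays MAG and CNP each followed the background mean at Pearson's r = 0.79, and UGT8 and ASPA ran against it at -0.784 and -0.775. The permutation p of these Pearson values ran from 7e-05 to 0.00025, and adjusted over 9 genes from 0.00036 to 0.000562. Spearman's rho was 0.699 for MAG, 0.647 for CNP, -0.568 for UGT8 and -0.556 for ASPA, with permutation p from 0.00092 to 0.01203 and adjusted p from 0.00828 to 0.0271. When LR replicate 3 and HR replicate 4 were left out, whose background lay farthest from the median, r was 0.662, 0.637, -0.574 and -0.547 in the same order. Within each group the signs held for these 4 genes, as r lay between 0.575 and 0.979 for MAG and CNP and between -0.848 and -0.648 for UGT8 and ASPA.

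ERMN had r = -0.665 with background, with a permutation p of 0.00777 and 0.014 adjusted, but rho was -0.289 with permutation p = 0.218, and r was -0.198 without the 2 farthest arrays. That relation rested on those arrays. For MBP r was 0.538, with permutation p = 0.0146 and 0.0219 adjusted, and rho was 0.441 with permutation p = 0.053. MOG, MOBP and MAL gave r of 0.21, -0.307 and 0.279 and rho of 0.215, -0.113 and 0.176, and their permutation p-values ran from 0.192 to 0.638. Such values were common on these arrays, since 8.23% of all tested probe sets had r above 0.75 and 14.2% had r below -0.75, around a median of 0.306. The part of array background in the HR and LR differences was not tested.

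**Figure D3:**
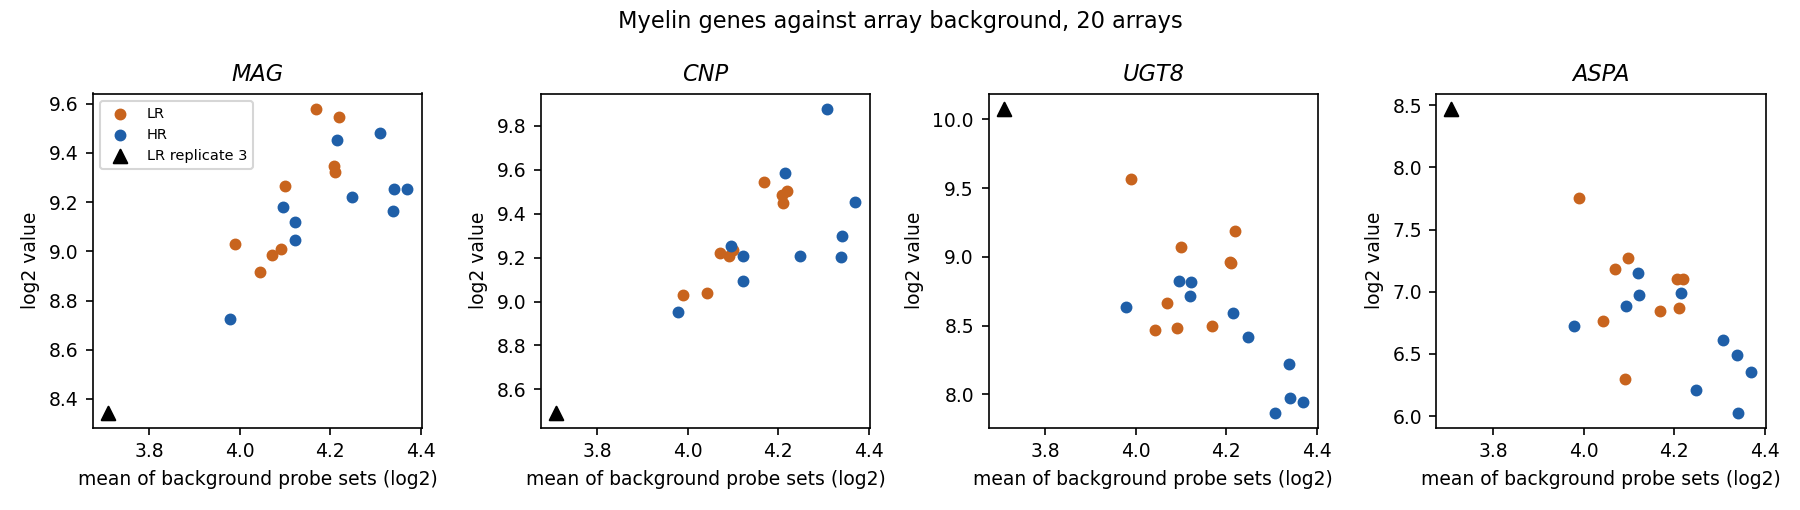
Log2 values (y axes) of MAG, CNP, UGT8 and ASPA against the mean log2 value of the antigenomic background probe sets (x axes), 1 point per array, 20 arrays. MAG and CNP are higher on arrays with more background, with r = 0.79 each, and UGT8 and ASPA are lower, with r of -0.784 and -0.775; the triangle at 3.71 is LR replicate 3.

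The 9 genes fell into blocks that varied together among animals. Of 36 pairs, 13 correlated positively and 2 negatively at a permutation p under 0.05 adjusted over the pairs for Pearson's r, and 10 positively and 0 negatively for both r and Spearman's rho. The same share among pairs of other tested genes was not computed, so these counts do not set the 9 genes apart. Many other probe sets also followed array background. One block held MBP, MAG, CNP and MAL, with r of 0.86 for MBP and MAG, 0.848 for MBP and CNP, 0.85 for MBP and MAL, and 0.925 for MAG and CNP. For these pairs Spearman's rho ran from 0.795 to 0.907, and all 4 Pearson values had permutation p = 1e-05, the smallest that these permutations can give. MOG joined this block through MAL, at r = 0.728 and rho = 0.693, with permutation p of 0.00027 and 0.00091.

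UGT8, ASPA and ERMN made another block. UGT8 and ASPA, both of lipid metabolism, had r = 0.899 and rho = 0.854, each at the smallest permutation p of 1e-05. UGT8 and ERMN had r = 0.782 and rho = 0.645, with permutation p of 7e-05 and 0.0026. Without the 2 arrays farthest from the median of UGT8 or of the first gene of each pair, r was 0.769 for UGT8 with ASPA, 0.595 for UGT8 with ERMN and 0.341 for ASPA with ERMN. MOBP stood between the blocks, at r = 0.566 with ASPA, 0.515 with UGT8 and 0.014 with CNP. That place rested on LR replicate 3, without which MOBP had r = 0.649 with MBP, 0.578 with MAG, 0.562 with MAL and 0.406 with CNP, against 0.416 with ASPA and 0.354 with UGT8.

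Between the blocks the values opposed each other on the deposited scale only in part. CNP had r = -0.586 with UGT8 and -0.634 with ERMN, but rho was -0.251 and -0.171, and r was -0.105 and 0.194 without the 2 farthest arrays. These relations rested on those arrays. Without LR replicate 3 the lowest r of any pair was -0.328, and 27 of 36 pairs lay above 0. After regression of each gene on the background mean, 32 of 36 pairs lay above 0, the median r was 0.44 against 0.306 before, and the lowest was -0.237. UGT8 with MAG went from -0.456 to 0.432 in that step, and UGT8 with ASPA from 0.899 to 0.742. ERMN stayed near 0 or below with MBP, MAG, CNP, MAL and MOG, from -0.237 to 0.00.

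**Figure D4:**
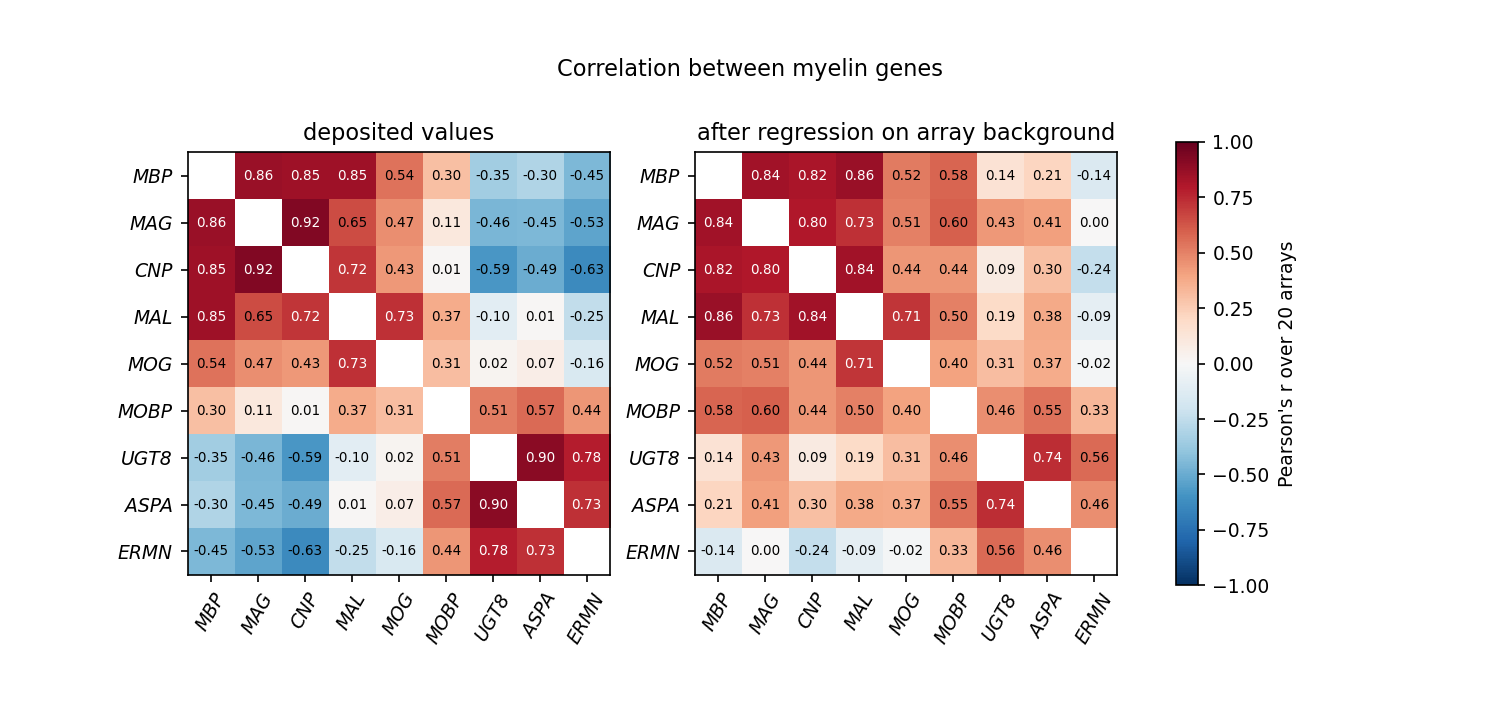
Pearson's r over 20 arrays between the 9 genes (both axes), for the deposited log2 values (left) and after regression of each gene on the array background mean (right). Red is positive and blue negative; the negative values between CNP and ERMN or UGT8, -0.634 and -0.586, become -0.237 and 0.09.

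A few animals stood high or low for several genes. LR replicates 8 and 9 were each among the 3 highest animals for 6 of the 9 genes, and neither was among the 3 lowest for any. LR replicate 3 was the highest of 20 for UGT8, ASPA and ERMN and the lowest for MBP, MAG and CNP. HR replicate 6 showed the reverse, ranking 1 for MBP, CNP and MAL and 20 for UGT8 and ERMN. LR replicate 2 stood near LR replicate 3, ranking 2 for UGT8 and ASPA and 19 for MBP. LR replicates 2 and 3 and HR replicate 6 were also among the 4 arrays that correlated least with the others. Their background means were 3.99, 3.71 and 4.31. HR replicate 10 was among the 3 lowest for UGT8, ASPA, MAL and ERMN, and HR replicate 1 among the 3 lowest for MBP, MAG, MOBP and CNP. Thus high and low animals occurred in both groups for the MBP block, while the animals ranking 1 to 6 for UGT8 were all LR.

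**Figure D5:**
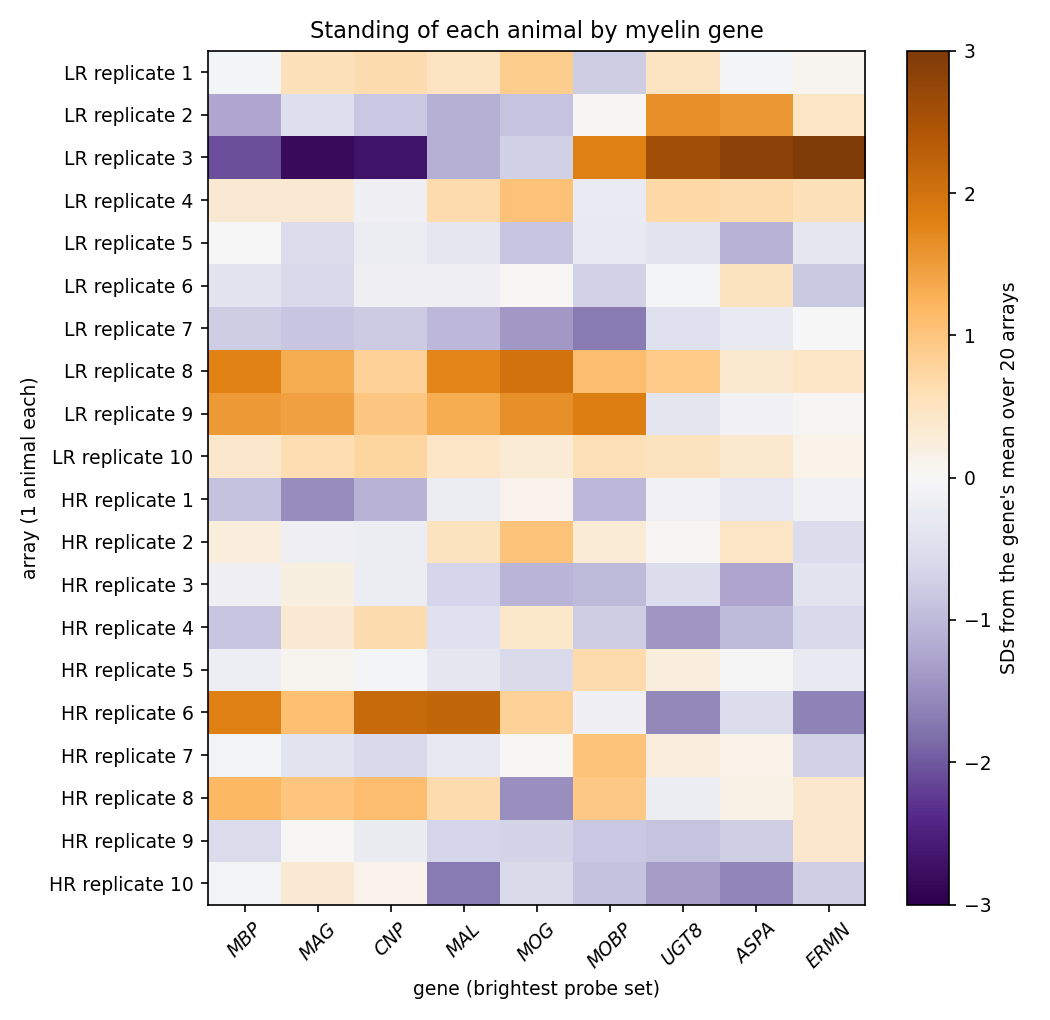
Standing of each of the 20 animals (y axis, LR above HR) for the 9 genes (x axis), in SDs from the gene's mean over 20 arrays; brown is high and purple low. LR replicates 8 and 9 are high for 6 genes each, and LR replicate 3 is lowest for MBP, MAG and CNP and highest for UGT8, ASPA and ERMN.

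The mean of the 9 standardized genes was also compared with 10221 other tested genes, by the correlation of within-group deviations over 20 arrays. Before regression on background the 9 genes did not share one pattern. There r with the mean of the other 8 was -0.09 for ERMN, 0.07 for UGT8 and 0.17 for ASPA, and between 0.308 and 0.71 for the rest. The most alike of the other genes was OPALIN, a membrane glycoprotein of oligodendrocytes, at r = 0.859. PTMA followed at 0.773, H3F3A at 0.755, LPAR1, a receptor for lysophosphatidic acid, at 0.748 and PLLP, the myelin proteolipid plasmolipin, at 0.735. PRKCQ, ATP6V1C2 and WRB completed the first 8, from 0.725 to 0.717. LHFPL1, NCALD, FAM170B and PC2 were the least alike, from -0.711 to -0.687. After regression on the background mean, PLLP and OPALIN led at 0.864 each, followed by LPAR1 at 0.838, H3F3A at 0.835 and RPS24 at 0.827. TRIM35 was lowest at -0.80. In that step r with the mean of the other 8 members was 0.427 for UGT8, 0.577 for ASPA and 0.0749 for ERMN. For the rest it lay between 0.512 and 0.763. H3F3A, PTMA and RPS24 have many near-identical copies in mammalian genomes, so their probe sets may read several. These genes were ranked by r, and no test was made.

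Other genes of the myelin program showed the same lack of calls. The lists were compiled from general knowledge, and each listed gene was read from its tested probe set with the highest mean. Other sets of the same gene, such as those among the 8 tested for GPM6B, are not given here and may differ. No listed gene passed the limma test at an adjusted p under 0.05 on that set. Counts at an unadjusted p under 0.05 in these lists stand against 14.0% lower and 12.3% higher among all tested probe sets. Among 12 tested genes of myelin structure, 1 was lower and 0 higher in HR at an unadjusted p under 0.05, with a median difference of 0.02. GPM6B, a proteolipid of glia and neurons, was at 11.4 ± 0.25 (SD, n = 10) in HR against 11.7 ± 0.33 (SD, n = 10) in LR, a difference of -0.34 with a limma adjusted p of 0.157. It ran against array background at r = -0.844, and was -0.12 with the covariate. BCAS1, a marker of early myelinating oligodendrocytes, gave -0.21 and OPALIN -0.16, while the peripheral myelin protein PMP22 gave 0.11 and NFASC, a cell adhesion molecule of the node and its flanks, 0.09. The covariate left 1 of 12 at an unadjusted p under 0.05, which was BCAS1 at -0.27.

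Lipid and metabolic genes did not share one direction with UGT8. Of 11 tested, 2 were lower and 0 higher in HR at an unadjusted p under 0.05, with a median of 0.07. The lower ones were ENPP2, the enzyme autotaxin that makes lysophosphatidic acid, at -0.46, and SLC44A1, a choline transporter, at -0.32. With the covariate they were at -0.22 and -0.16, and 0 of 11 genes had an unadjusted p under 0.05. FA2H, which hydroxylates the fatty acids of galactolipids, and GAL3ST1, which sulfates galactosylceramide to sulfatide, act in the same route as UGT8. They had differences of 0.22 and 0.18, with limma adjusted p-values of 0.234 and 0.253, and with the covariate 0.06 and 0.07. The difference between these genes and UGT8 was not tested.

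Oligodendrocyte transcription factors gave 0 of 6 genes at an unadjusted p under 0.05, with SOX10, the factor that switches on many myelin genes, at 0.16, OLIG2 at 0.12 and ZNF24 at -0.23. Junction, receptor and protease genes gave 2 of 12, namely LPAR1 at -0.35 and DOCK10 at -0.45, both lower in HR, and 0 of 12 with the covariate, where these were at -0.26 and -0.13. In that list ANLN was at -0.33, the glial connexin gene GJB1 at 0.25 and LGI3 at 0.20, and the covariate took these to -0.03, 0.04 and 0.01. Without LR replicate 3 the values were -0.25 for DOCK10 and -0.13 for ANLN. Of 5 oligodendrocyte precursor markers, 3 were lower at an unadjusted p under 0.05, and 0 of 5 with the covariate. These were PDGFRA, the growth factor receptor of precursors, at -0.47, PTPRZ1 at -0.44 and VCAN at -0.44, while GPR17 and CSPG4, which also mark precursors, were at 0.19 and 0.13. VCAN was at -0.23 without LR replicate 3. The median r of the 5 with array background was -0.713, and with the covariate their median difference was -0.07. The log2 of their summed level ran from 10.5 to 10.97 in HR and from 10.6 to 11.99 in LR, and their part in the myelin differences was not tested.

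Markers of other cells were measured in the same way. Neuron markers gave 6 of 9 lower and 1 higher in HR at an unadjusted p under 0.05, against 14.0% and 12.3% of all tested, with a median of -0.22 and a median r with background of -0.849. With the covariate 0 of 9 were left and the median was -0.04. NEFM, STMN2 and SNAP25 were at -0.36, -0.22 and -0.26, and SYN1 at 0.19. The log2 of the summed neuron markers ran from 13.7 to 14.2 in HR and from 13.9 to 14.5 in LR. Astrocyte markers gave 3 of 7 lower and 1 higher, with SLC1A3 at -0.31, SLC1A2 at -0.56, GJA1 at -0.41 and GFAP at 0.18, and their sum ran from 13.9 to 14.2 in HR and from 14.0 to 14.9 in LR. The covariate left 1 of 7, SLC1A3 at -0.17, and took SLC1A2 to -0.17, GJA1 to -0.13 and the median of the list from -0.26 to 0.01. The part of neuron and astrocyte markers in the differences of UGT8, ASPA and ERMN was not tested.

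Microglia markers gave 0 of 7 lower and 1 higher, TREM2 at 0.31, and endothelial markers 0 of 6 lower and 1 higher, PECAM1 at 0.41. With the covariate TREM2 was at 0.15 and PECAM1 at 0.16, and 1 of 7 and 0 of 6 had an unadjusted p under 0.05. The summed microglia markers ran from 11.7 to 12.2 in HR and from 11.6 to 11.98 in LR, and the endothelial sum from 11.5 to 11.8 in HR and from 11.003 to 11.8 in LR. Choroid plexus markers gave 0 of 3 lower and 1 higher, FOLR1 at 0.20, which the covariate took to 0.11. Their sum varied from 8.57 to 13.4 in HR and from 8.46 to 13.0 in LR. Of 4 Schwann cell markers only EGR2 was tested, with a difference of 0.00. The summed log2 level of the 9 myelin genes ran from 13.7 to 14.0 in HR and from 13.6 to 14.2 in LR. Thus the main sets of the 9 genes lay above the background mean of their own array in every one of the 20 arrays. The lowest margin was 8.53 for MBP and 1.69 for ASPA. Dimmer sets came closer, such as SNOWBALL_001055_st of MOG, whose lowest margin was -0.05.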

How the data were processed

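Amplified, fragmented and biotin-labelled cDNA made from RNA of each amygdala was hybridized to an Affymetrix porcine Snowball array. Per the labels and methods, the authors processed scans with GCOS 1.1.1 and normalized them by robust multichip average. The deposited values are log2 intensities, 1 column per animal, from 0.49 to 14.3. The deposited table holds 47845 probe sets, array controls included, so the detection filter described by the authors was taken not to have been applied to it. Replicate numbers follow accession order and pair no samples.

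The HR minus LR difference came from lmFit and eBayes of limma 3.58.1 (R 4.3.3), 2-sided, with Benjamini-Hochberg adjustment over 23860 probe sets with a mean of at least 5.18. The procedure was tested on simulated data. Correlations used 100000 permutations in numpy 2.4.6, with ranks from scipy 1.17.1. Symbols came from the platform annotation, and chromosomes from RefSeq on Sscrofa11.1. The number of arrays limits precision.

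All 9 genes with every probe set were named. From each other list up to 3 genes with the smallest p in each direction were eligible, and for likeness the 8 highest and 4 lowest. Members and lists were chosen with earlier results of these data known. Correlations without LR replicate 3 were added after seeing the data. Other filters, variance models, weights, normalizations, covariates, probe set choices and arrays left out were tried. A planned promoter motif search was not run, since no promoter sequence was used here.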

Additional observations from a re-analysis of the deposited data

Results flagged for a closer look

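Within each group of 10 arrays, the highest and the lowest value were compared with the nearest of the others. Of 36 such groups, covering the 17 probe sets and the background mean in HR and in LR, 4 held a value whose gap exceeded Dixon's critical share of the range at the 95% level. Chance flags about 1 in 20 groups, or 1.8 of 36. LR replicate 3 accounted for 3 of the 4. It was low for CNP, at 8.49 with a gap of 0.51 of the range, high for ERMN, at 9.40 with a gap of 0.687, and low for the array background mean, at 3.71 with a gap of 0.552. The other was LR replicate 9, which was high for MOG on SNOWBALL_009638_st, at 6.98 with a gap of 0.564. What these values have in common beyond the array was not tested.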

How the results depend on the processing

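The differences of 17 probe sets were recomputed 517 times under other settings. Of these, 486 kept their direction and stayed above an adjusted p of 0.05, 31 changed sign, and 0 passed the threshold, with a lowest limma adjusted p of 0.101. The 11 probe sets of MOG, UGT8, ASPA, ERMN and the 3 further tested sets of MBP never changed sign, but some came close to 0. The first component, the largest axis of variation over the tested probe sets, held 49.0% of the variance. The main set of UGT8, ASPA and ERMN had r of -0.91, -0.849 and -0.857 with it. With that component as covariate their differences were -0.18, -0.11 and -0.0136. Sign changes fell on differences that lay between -0.09 and 0.09 without a covariate, and some changed values lay farther from 0, such as -0.19 for MAG. Array weights gave -0.0137 for MBP, -0.00738 for MAG, 0.0327 for MOBP and -0.00804 for CNP, and repeated quantile normalization gave -0.00403 for MBP. The background covariate gave -0.0536 for MBP, -0.18 for MAG, -0.13 for CNP and -0.0902 for the MOBP set SNOWBALL_029596_st. The first component as covariate gave -0.0721, -0.19, -0.16 and -0.15 in the same order. Animal number as covariate gave -0.0467 for MBP, -0.0606 for MAG and -0.18 for that MOBP set. Without the 4 arrays of lowest correlation, HR replicates 4 and 6 and LR replicates 2 and 3, values were -0.0478 for MBP, -0.10 for MAG, -0.11 for CNP and -0.0613 for that MOBP set. The mean of all probe sets gave -0.092 for MBP, and the set of largest spread 0.0745 for MOBP. Leaving out 1 array at a time gave -0.0157 to 0.0331 for MBP, -0.0327 to 0.11 for MAG, -0.00779 to 0.18 for the same MOBP set and -0.15 to 0.00186 for MAL.

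The count of 6 probe sets lower in HR at an unadjusted p under 0.05 became 2 with the background covariate, 2 with animal number and 3 without the 4 arrays, and ran from 4 to 6 with 1 array left out. The sets counted were not always among those 6. With the background covariate they were 1 of MOG and that of MAG. Without the 4 arrays they included SNOWBALL_001057_s_st and SNOWBALL_009638_st of MOG, at -0.31 ± 0.13 and -0.46 ± 0.14 (SE). The count of 3 genes became 1 with array weights, the background covariate or the first component, 0 with animal number or without the 4 arrays, and ran from 2 to 3 with 1 array left out. That 1 gene was UGT8 with array weights. With the background covariate or the first component it was MAG, and none of UGT8, ASPA and ERMN was counted. The count of probe sets higher in HR ran from 0 to 1, and was 1 without LR replicate 8 or without HR replicate 1. The cause of these changes was not tested. No paired analysis was possible because the labels carry no replicate numbers that join HR and LR animals.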
